A study of Homo sapiens with 6 samples.

Results

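The SWI/SNF chromatin remodeler was examined through 10 of its subunit genes, SMARCA2, SMARCA4, SMARCB1, SMARCC1, SMARCC2, SMARCD1, SMARCD2, SMARCE1, ARID1A and ARID1B, which were chosen by name and matched by official symbol. All 10 members were found among the 12486 genes of the expression table. RNA-seq was performed on K562, a long established line of human leukemic cells positive for Bcr-Abl. Control cells (sh-luc) expressed an shRNA against luciferase, and knockdown cells (sh-IUR1) expressed an shRNA against lncRNA-IUR1, which the sample labels call lncRNA-up91. Each group had 3 libraries, 1 without a number and the others numbered r1 and r2. According to the methods, the RNA of each group came from independent groups of cells. A figure legend of the paper describes K562 cells that expressed either shRNA stably. A search by the name IUR1, as symbol or synonym, matched 0 of the genes analysed here. The locus was not searched, so the targeted lncRNA could be listed under another name, and its own level was not analysed here.

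SWI/SNF complexes use the energy of ATP to slide or evict nucleosomes and so open chromatin at promoters and enhancers. Each complex is built around a single ATPase, either SMARCA4 or SMARCA2, with a core of shared subunits and further subunits that set the type of complex, such as ARID1A or ARID1B in the canonical form. Several positions can be filled by either of a pair of paralogs, and many subunits are mutated in cancer, SMARCB1 and ARID1A among them.

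Levels are given in FPKM, fragments normalized for the length of the transcript and the size of the library. Levels of different genes are set side by side on this scale. It divides out length but not effects of G and C content, so orders and shares between genes are approximate. The cells carried the markers of their line. All 12 erythroid markers on the list for K562 were listed, led by the fetal globin HBG2 at a mean of 2915 FPKM, with HBG1 at 1271 FPKM, HBZ at 711 FPKM, GATA1 at 194 FPKM, KLF1 at 115 FPKM and TAL1 at 29.2 FPKM. Of 10 markers of T and B cells 6 were listed, with a summed level of 5.22 to 7.15 FPKM per library, and CD3D led at a mean of 4.11 FPKM. Of 10 monocyte and granulocyte markers 4 were listed, and LYZ, at 107 to 119 FPKM, made up nearly the whole of their sum of 117 to 130 FPKM.

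The unnumbered sh-luc library stood apart from the other libraries before any group was compared. The main axis of variation among the libraries held 59.3% of the variance and placed it at -19.8, while the other 5 lay between -3.75 and 13.02. In the same library the 19 tested genes of the integrated stress response, a pathway that reacts to amino acid shortage and misfolded protein, had a mean log2(FPKM + 1) of 5.46, against 6.18 to 6.65 in the others. Results that rest on this library are given below with and without it.

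The levels of the 10 members spanned from 8.41 FPKM on average for SMARCA2 to 74.5 FPKM for SMARCD2. SMARCD2 and SMARCA4 (72.2 FPKM) were the most abundant, followed by SMARCB1 (60.9 FPKM), SMARCC1 (53.4 FPKM), SMARCE1 (48.9 FPKM), SMARCD1 (47.1 FPKM), SMARCC2 (40.1 FPKM), ARID1A (26.4 FPKM), ARID1B (9.21 FPKM) and SMARCA2. In this order 5 of 9 neighbouring pairs had ranges that were apart in the 6 libraries. The ranges of SMARCD2 and SMARCA4, of SMARCE1 and SMARCD1, and of ARID1B and SMARCA2 overlapped, and the order within these pairs was not the same in every library. The ranges of SMARCD1 and SMARCC2 overlapped as well, but SMARCD1 was the higher in each of the 6 libraries. By mean level, SMARCD2 stood above 90.2% of all genes tested and SMARCA2 above 44.5%.

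**Figure D1:**
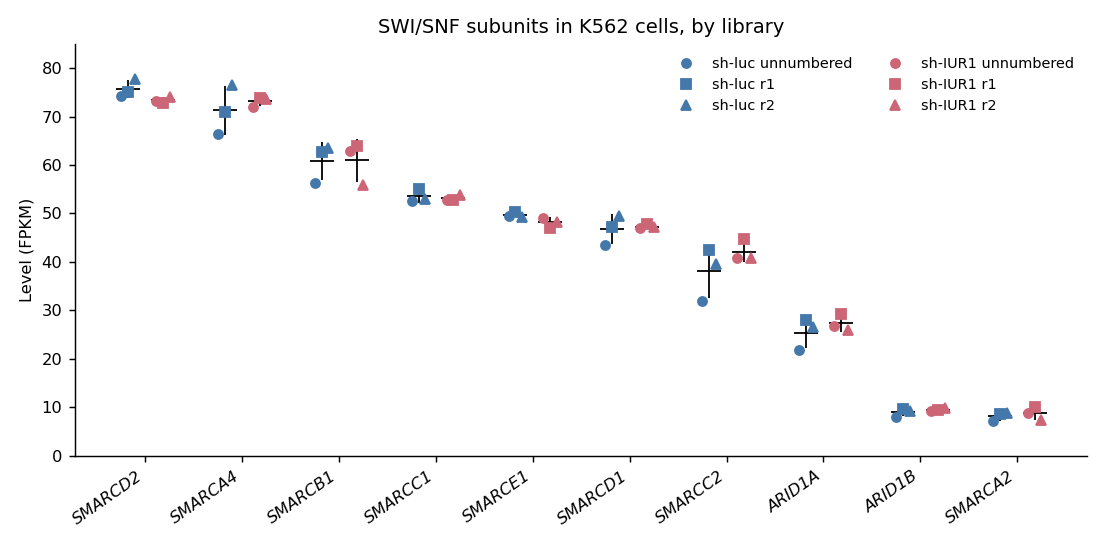
Level in FPKM of each of the 10 SWI/SNF members in the 6 libraries, sh-luc in blue and sh-IUR1 in red, with the marker shape giving the library number, the horizontal bar the group mean and the vertical line the SD (n = 3). SMARCC2 and ARID1A show a low point at 32.0 and 21.8 FPKM in the unnumbered sh-luc library, and SMARCD2 and SMARCE1 are the members whose groups are apart.

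SMARCA4 and SMARCA2 encode the alternative ATPases, the motor of the complex. SMARCA4 (GRCh38, chr19:10961030-11062273, plus strand) was at 66.4, 70.9 and 76.6 FPKM in the unnumbered, r1 and r2 libraries of sh-luc and at 72.1, 73.8 and 73.7 FPKM in those of sh-IUR1. The sh-IUR1 values lay inside the range of sh-luc. The log2 fold change was 0.040 (SE 0.064, 95% interval -0.10 to 0.18) on the scale of log2(FPKM + 1), with an adjusted p of 0.945 by limma. Without the unnumbered sh-luc library it was -0.0095.

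SMARCA2 (chr9:2015347-2193620, plus strand) was at 7.09, 8.51 and 8.71 FPKM in sh-luc and at 8.86, 10.02 and 7.28 FPKM in sh-IUR1. The groups overlapped, with the highest and the second lowest value both in sh-IUR1. Relative to its mean, SMARCA2 varied most of all members, with a coefficient of variation of 12.9% over the 6 libraries, and its log2 fold change of 0.089 (SE 0.12, adjusted p = 0.935 by limma) was smaller than its SE. The value was 0.0066 without the unnumbered sh-luc library and -0.0061 without sh-IUR1 r1.

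SMARCA4 exceeded SMARCA2 in every library, by 9.37-fold, 8.33-fold and 8.79-fold in sh-luc and by 8.13-fold, 7.36-fold and 10.1-fold in sh-IUR1. SMARCA4 thus held 88.0% to 91.0% of the FPKM of the pair in the 6 libraries. The extremes of this ratio both fell in sh-IUR1, r1 being the lowest and r2 the highest. The mean log2 ratio was 3.14 ± 0.085 in sh-luc and 3.08 ± 0.24 in sh-IUR1 (SD, n = 3), and the difference of -0.059 gave a two-sided exact permutation p of 0.8. It was -0.016 without the unnumbered sh-luc library. For 3 against 3 libraries the permutation test cannot give a p under 0.1.

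The promoter side of the ATPase pair is shown here because these paralogs had the widest difference in level, and that of ARID1A because its level was low together with that of several members in 1 library. RefSeq promoter sequence (GRCh38.p14) was found for 8 of 10 members, with SMARCC1 and SMARCC2 not matched. Each sequence begins 250 bases before the outermost RefSeq start of the gene and ends there or where the first exon annotated by GENCODE begins. Capitals mark matches to the GC box, GGGCGG, on either strand (CCGCCC on the other). The stretches are chr19:10960780-10960931 for SMARCA4 (152 bases), chr9:2015097-2015185 for SMARCA2 (89 bases) and chr1:26695765-26696014 for ARID1A (250 bases), all on the plus strand.
SMARCA4: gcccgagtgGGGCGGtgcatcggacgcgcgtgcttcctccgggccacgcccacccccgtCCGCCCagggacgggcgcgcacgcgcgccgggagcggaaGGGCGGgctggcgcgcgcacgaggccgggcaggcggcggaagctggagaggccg
SMARCA2: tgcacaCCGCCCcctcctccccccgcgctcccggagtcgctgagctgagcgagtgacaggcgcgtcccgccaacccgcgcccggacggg
ARID1A: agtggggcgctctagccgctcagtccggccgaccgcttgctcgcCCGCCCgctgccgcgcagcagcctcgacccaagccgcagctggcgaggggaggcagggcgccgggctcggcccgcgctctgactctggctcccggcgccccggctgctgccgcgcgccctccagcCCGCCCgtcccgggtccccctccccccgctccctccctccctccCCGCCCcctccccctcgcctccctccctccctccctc

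The GC box was matched 3 times in the SMARCA4 stretch, 1 time in that of SMARCA2 and 3 times in that of ARID1A. Among 35116 RefSeq promoters, 26.1%, 15.4% and 42.6% held a match in stretches of the same lengths. The CCAAT box, searched by those letters on both strands, gave 0 matches in each stretch, against 19.2%, 11.1% and 32.0% of promoters with a match. The TATA box, searched as TATAAA on both strands, also gave 0 matches in each stretch, against 6.34%, 4.08% and 10.7%. A count of 0 says only that the letters are not in these stretches. Over the 250 bases before the start, the G and C content was 82.4% for SMARCA4, 68.8% for SMARCA2 and 80.4% for ARID1A, against a median of 58% for all promoters. FPKM do not tell which start was used, and no link between these letters and the levels was tested.

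SMARCC1 and SMARCC2 encode the paralogous scaffold proteins on which the core is assembled. SMARCC1 (chr3:47585269-47781893, minus strand) was the steadiest member, at 52.6, 55.1 and 53.0 FPKM in sh-luc and 52.9, 52.8 and 53.7 FPKM in sh-IUR1. The values overlapped, and the coefficient of variation over the 6 libraries was 1.79%. The log2 fold change was -0.011 (SE 0.055, adjusted p = 0.976 by limma), and -0.024 without the unnumbered sh-luc library.

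SMARCC2 (chr12:56162359-56189483, minus strand) was at 32.0, 42.5 and 39.6 FPKM in sh-luc and at 40.8, 44.6 and 40.8 FPKM in sh-IUR1. The low value belonged to the unnumbered sh-luc library, while the other 5 libraries averaged 41.7 ± 1.94 FPKM (SD). SMARCC2 had the largest log2 fold change of the 10 members, 0.15 (SE 0.098, 95% interval -0.067 to 0.37), and its adjusted p was 0.930 by limma. It was 0.036 without the unnumbered sh-luc library and 0.23 without sh-luc r1, and neither passed after adjustment.

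SMARCC1 exceeded SMARCC2 by 1.64-fold, 1.30-fold and 1.34-fold in sh-luc and by 1.30-fold, 1.18-fold and 1.32-fold in sh-IUR1. The unnumbered sh-luc library was the highest, with a SMARCC1 share of 62.1% against 54.2% to 57.2% in the others. The log2 ratio was 0.50 ± 0.18 in sh-luc and 0.34 ± 0.082 in sh-IUR1 (SD, n = 3), a difference of -0.17 (exact permutation p = 0.2), which was -0.061 without the unnumbered sh-luc library. Of the 4 paralog ratios compared, this one differed most between the groups.

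**Figure D2:**
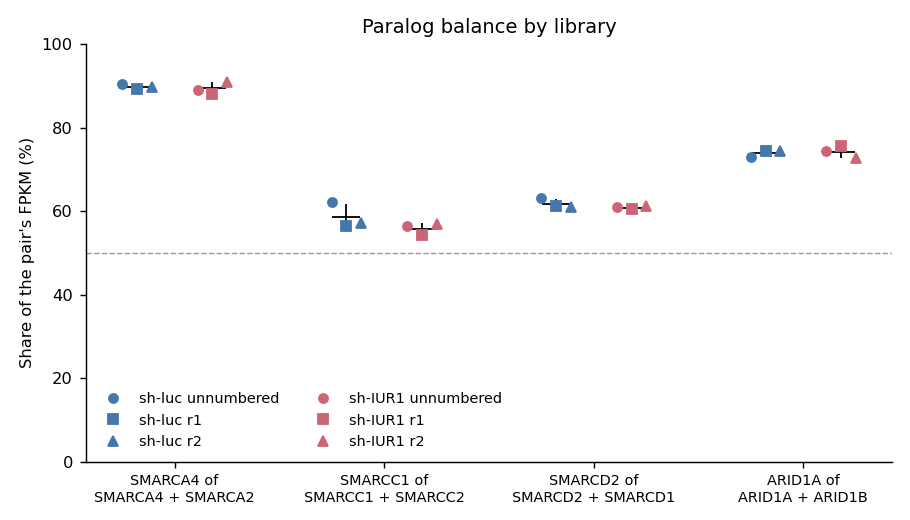
Share of the first paralog in the summed FPKM of each pair, in percent, for the 6 libraries, with group means and SD (n = 3) and the dashed line at equal shares. SMARCA4 holds 88.0% to 91.0% of the ATPase pair, and the unnumbered sh-luc library is highest for SMARCC1, at 62.1%, and for SMARCD2, at 63.0%.

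SMARCB1, SMARCE1 and the SMARCD proteins complete the core around the ATPase. SMARCB1 (chr22:23786966-23838009, plus strand), which contacts the nucleosome surface, was at 56.4, 62.7 and 63.4 FPKM in sh-luc and at 63.0, 64.0 and 55.9 FPKM in sh-IUR1. Each group had 1 low library, the unnumbered one of sh-luc and r2 of sh-IUR1, and the others were at 62.7 FPKM or more. The means were 60.8 ± 3.87 FPKM and 60.9 ± 4.39 FPKM (SD, n = 3), with a log2 fold change of 0.0022 (SE 0.074, adjusted p = 0.996 by limma), which was -0.051 without the unnumbered sh-luc library.

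SMARCE1 (chr17:40624962-40647818, minus strand), a subunit with a DNA-binding HMG domain, was at 49.4, 50.2 and 49.4 FPKM in sh-luc and at 49.1, 47.0 and 48.3 FPKM in sh-IUR1. Every sh-IUR1 library lay below every sh-luc library, although the closest values were 49.14 and 49.35 FPKM. The group means were 49.7 ± 0.478 and 48.2 ± 1.06 FPKM (SD, n = 3), and the log2 fold change of -0.044 (SE 0.055) had an adjusted p of 0.932 by limma. With a library left out it ran from -0.058 to -0.027.

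SMARCD2 (chr17:63832081-63842685, minus strand), one of the paralogs that link the core to transcription factors, was at 74.2, 75.0 and 77.7 FPKM in sh-luc and at 73.2, 72.8 and 74.1 FPKM in sh-IUR1. Here too the groups did not overlap, and the closest values were 74.08 and 74.19 FPKM. The means were 75.6 ± 1.83 and 73.4 ± 0.639 FPKM (SD, n = 3), a ratio of 0.970, and the log2 fold change was -0.043 (SE 0.053, adjusted p = 0.932 by limma). It was -0.024 without sh-luc r2 and -0.057 without the unnumbered sh-luc library.

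SMARCD1 (chr12:50085342-50100707, plus strand) was at 43.5, 47.3 and 49.6 FPKM in sh-luc and at 47.0, 47.8 and 47.2 FPKM in sh-IUR1. The sh-IUR1 libraries lay within the range of sh-luc, and the log2 fold change was 0.017 (SE 0.064, adjusted p = 0.969 by limma), or -0.033 without the unnumbered sh-luc library. SMARCD2 exceeded SMARCD1 by 1.70-fold, 1.59-fold and 1.57-fold in sh-luc and by 1.56-fold, 1.52-fold and 1.57-fold in sh-IUR1. This was the steadiest of the ratios relative to its size, and the difference in log2 ratio was -0.062 (exact permutation p = 0.2), or -0.024 without the unnumbered sh-luc library. Another paralog, SMARCD3, named after its values were seen, was at 5.20 to 6.43 FPKM.

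ARID1A and ARID1B encode the large alternative subunits that define canonical SWI/SNF. ARID1A (chr1:26696015-26782104, plus strand) was at 21.8, 28.0 and 26.5 FPKM in sh-luc and at 26.8, 29.2 and 26.0 FPKM in sh-IUR1. Its lowest value came from the unnumbered sh-luc library and the rest overlapped. The log2 fold change was 0.11 (SE 0.094, adjusted p = 0.930 by limma). It was 0.0026 without that library, 0.058 without sh-IUR1 r1 and 0.18 without sh-luc r1.

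ARID1B (chr6:156776026-157210779, plus strand) was at 8.05, 9.61 and 9.17 FPKM in sh-luc and at 9.23, 9.46 and 9.76 FPKM in sh-IUR1. The unnumbered sh-luc library was again the lowest. The log2 fold change of 0.079 (SE 0.083, adjusted p = 0.930 by limma) was 0.013 without it and 0.13 without sh-luc r1. ARID1A exceeded ARID1B by 2.71-fold, 2.91-fold and 2.89-fold in sh-luc and by 2.90-fold, 3.09-fold and 2.66-fold in sh-IUR1, and the groups overlapped. The difference in log2 ratio was 0.022 (exact permutation p = 0.9), and it was -0.012 without the unnumbered sh-luc library.

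Of the 10 members, all of which reached the minimum mean of 0.1 FPKM and were tested, 0 passed an adjusted p of 0.05 by limma in either direction, and the same held for the whole table, where 0 of 12276 genes tested were called higher (0%) and 0 lower (0%). At an unadjusted p under 0.05 by limma there were 203 genes higher and 122 lower in sh-IUR1, and 0 members among them. Together these were fewer than the share of 0.05 of the 12276 genes that is expected with no difference. The 0 among 10 members therefore says little. The balance of higher and lower turned with quantile normalization, to 134 higher and 178 lower. With a correction for G and C content and length, chosen after seeing the data, there were 200 and 258, and with median-ratio scaling 182 and 164. With 1 library left out the counts ran from 98 and 60, without unnumbered sh-IUR1, to 598 and 258, without sh-luc r1. In the latter fit SMARCC2 had an unadjusted p of 0.043 by limma. In the main comparison the groups did not overlap for 2 of 10 members, SMARCD2 and SMARCE1, both lower in sh-IUR1. Among all genes tested the groups were apart with sh-IUR1 lower for 3.03% and higher for 4.04%, and 0 members were apart and higher. With quantile normalization the members' count was 1, SMARCE1, and 6.98% of all genes were apart in either direction. Without the unnumbered sh-luc library the count was 2, against 12.6% of all genes. In bulk RNA, fewer cells that express a gene and less RNA per cell cannot be told apart.

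The log2 fold change was above 0 for 7 of 10 members, or 5 of 10 with median-ratio scaling and 4 of 10 with a correction for G and C content and length, chosen after seeing the data, and for 58.0% of all genes tested. Its median was 0.029 over the members and 0.019 over all genes, and with that correction -0.011 and -0.0058. The member median was 0.0080 with median-ratio scaling, 0.0022 without sh-IUR1 r1 and 0.075 without sh-luc r2. Without the unnumbered sh-luc library 4 members were above 0 and 6 below, and the values ran from -0.057 to 0.036. The median was then -0.017 over the members and 0.0047 over all genes. The 95% intervals of the 10 members all included 0, and the widest, that of SMARCA2, ran from -0.17 to 0.35.

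**Figure D3:**
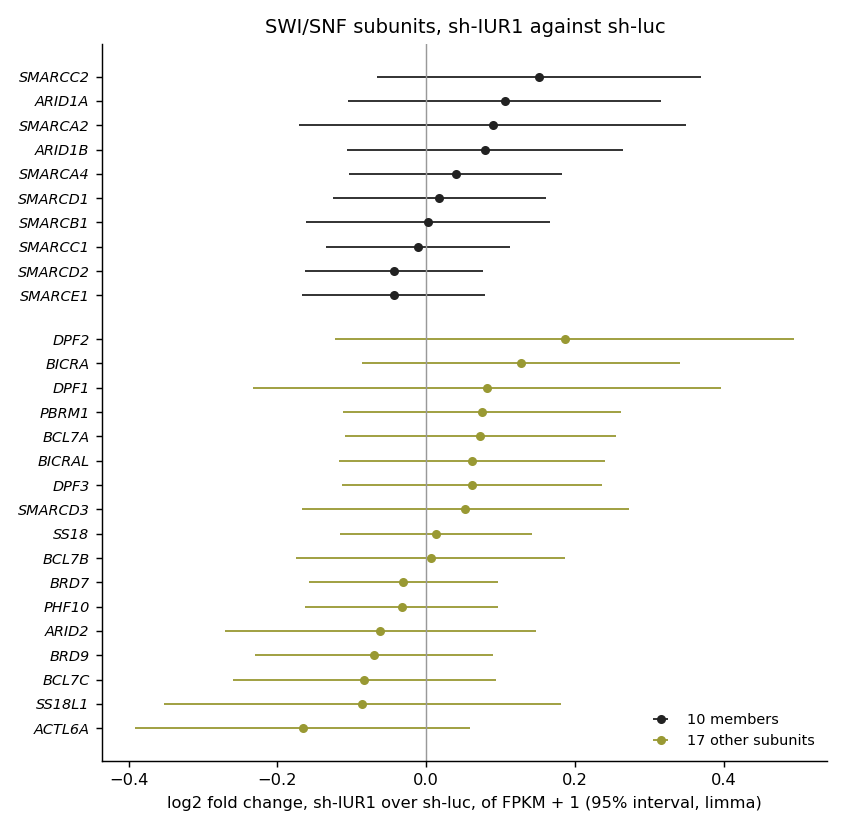
Log2 fold change of sh-IUR1 over sh-luc, on the scale of log2(FPKM + 1), with its 95% interval from limma, for the 10 members and for 17 other subunits of the complex. Every interval shown crosses 0, and SMARCC2 has the largest value among the members, 0.15.

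The other subunits of the complex were examined from a list of 20 genes, of which 17 were listed and tested. By limma 0 of 17 were called in either direction and 0 of 17 had groups that were apart. Of their log2 fold changes 10 were above 0, or 8 with median-ratio scaling. BRD7, a bromodomain subunit of the PBAF type, was the most abundant at 52.1 to 56.4 FPKM, which placed it beside SMARCC1. DPF2, which reads modified histone H3 in canonical complexes, was at 36.9, 52.4 and 51.7 FPKM in sh-luc and at 53.4, 60.9 and 45.7 FPKM in sh-IUR1. Like SMARCC2 and ARID1A it was lowest in the unnumbered sh-luc library, and its log2 fold change of 0.19 had an adjusted p of 0.930 by limma and was 0.025 without that library. With other single libraries left out it ran from 0.088, without sh-IUR1 r1, to 0.29, without sh-IUR1 r2. Of the 17 other subunits 35.3% were lowest in the unnumbered sh-luc library, against 37.5% of all genes tested. ACTL6A, BCL7C and SS18L1 were highest there. BCL7B was at 43.6 to 52.2 FPKM. Among 20 remodelers of other families 0 were called by limma and 0 were apart, and the NuRD ATPase CHD4, at 92.4 to 102 FPKM, was above SMARCA4 in each library. BAZ1B and BAZ2A, next in level on that list, averaged 42.9 and 25.6 FPKM.

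The unnumbered sh-luc library held the lowest value of 7 of 10 members, SMARCC1, SMARCA2, SMARCA4, SMARCC2, SMARCD1, ARID1A and ARID1B. Over all genes tested 37.5% were lowest there. Set against the mean of the other 5 libraries, its values differed widely among subunits. SMARCC2 was at -23.1%, ARID1A at -20.2%, SMARCA2 at -18.3% and ARID1B at -14.8% relative to that mean. SMARCA4, SMARCD1 and SMARCB1 formed a middle group at -9.50%, -8.85% and -8.75%. SMARCC1, SMARCD2 and SMARCE1 were near the others, at -1.78%, -0.504% and 1.26%. The ratios of SMARCC1 to SMARCC2 and of SMARCD2 to SMARCD1 were highest in this library, at 1.64-fold and 1.70-fold. That of SMARCA4 to SMARCA2, at 9.37-fold, lay inside the range of the other 5 libraries, 7.36-fold to 10.1-fold. The ratio of ARID1A to ARID1B, at 2.71-fold, lay inside their range as well.

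The median difference of that library from the other 5, on the scale of log2(FPKM + 1), was -0.14 over the members, -0.013 over the other subunits, -0.031 over the other remodelers and -0.035 over all genes tested. It was 0.20 over the erythroid markers and -0.97 over the stress genes, all 19 of which were lowest there, DDIT4, ATF4 and SLC3A2 being the most abundant. Between the groups, the log2 fold change was above 0 for all 19 stress genes (median 0.43) and below 0 for all 12 erythroid markers (median -0.081), with 0 of either list called by limma. The groups were apart for 1 marker, HBE1, lower in sh-IUR1. That was 8.33% of the erythroid markers, against 7.07% of all genes tested apart in either direction. Without the unnumbered sh-luc library the fold change was above 0 for 18 of 19 stress genes (median 0.055) and below 0 for 9 of 12 erythroid markers (median -0.037). With quantile normalization 11 of 12 erythroid markers were below 0. Other libraries moved them too, since the stress median was 0.24 without sh-IUR1 r1, and 9 of 12 erythroid markers were below 0 without sh-luc r2 or without sh-IUR1 r1. Across 11923 genes the difference went with the G and C content of the transcript (Pearson r = -0.29 across genes, which are not independent replicates). The 2385 genes with 30.7% to 40.7% G and C had a median of 0.077, and the 2385 genes with 59.0% to 76.9% one of -0.11. Transcripts of the members ranged from 42.0% G and C for SMARCE1 to 60.6% for SMARCA4. With the correction for G and C content and length, SMARCC2 had a log2 fold change of 0.11, SMARCA2 of 0.057, ARID1A of 0.052 and ARID1B of 0.027. SMARCC1 was then at -0.042, SMARCE1 at -0.065 and SMARCD2 at -0.079, and SMARCA4, SMARCB1 and SMARCD1 at -0.010, -0.046 and -0.012. The part of the stress genes in the member values was not tested.

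**Figure D4:**
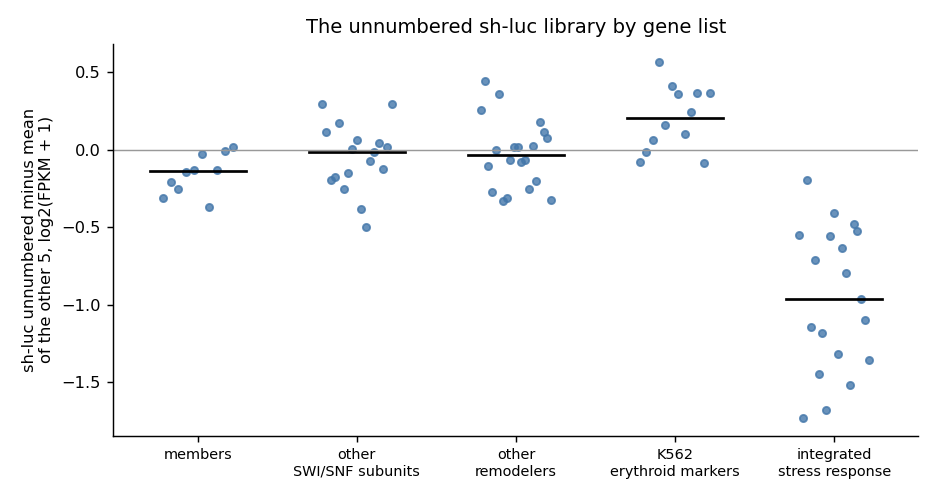
Difference of the unnumbered sh-luc library from the mean of the other 5 libraries, in log2(FPKM + 1), for each tested gene of 5 lists, with the median as a black line. The members have a median of -0.14 and the stress genes one of -0.97.

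The SD of log2(FPKM + 1) over the 6 libraries had a median of 0.078 for the members, from 0.025 for SMARCC1 to 0.17 for SMARCA2, of 0.098 for all genes tested and of 0.090 for genes whose mean log2(FPKM + 1) was at least 3, as it was for all members. SMARCA2, SMARCC2 (0.16) and ARID1A (0.14) varied more than the median gene. Without the unnumbered sh-luc library, a comparison chosen after seeing the data, the median was 0.039 for the members and 0.080 for all genes tested. For genes whose mean log2(FPKM + 1) was at least 3 the median was 0.071. SMARCC2 and ARID1A were then at 0.065 and 0.066, below the median gene, and SMARCA2 at 0.15, still above it. SMARCD2 and SMARCE1, whose groups were apart, were among the members with the smallest spread, at 0.033 and 0.032. Their transcripts differ in G and C content, 58.0% and 42.0%, and both genes lie on chromosome 17. SMARCC2 and SMARCD1 share chromosome 12, and the remaining members are each on a chromosome of their own.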

How the data were processed

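The authors used hg38 as the reference genome for their RNA-seq. SAMtools 0.1.19 is named for the expression values, as RPKM, whereas the deposited values are headed FPKM and have 2 decimals. The aligner is not given in the sources used here. The authors also deposited a score, the z-score of FPKM per gene, and a cluster number with a membership fraction, and neither was used in a test. The listed genes had an SD of at least 0.0501 FPKM. Whole fragments could not be recovered from low values (35.7% of 185 values came out whole against 17.9% by rounding alone), so the depth is unknown.

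RefSeq GRCh38.p14 gave symbols for 12363 of 12486 genes. Genes whose mean reached 0.1 FPKM (12276) were modelled as log2(FPKM + 1) with limma 3.58.1 in R 4.3.3 (lmFit, then eBayes with a trend), two-sided, with Benjamini-Hochberg adjustment over all genes tested, after the step was tested on simulated data. Paralog ratios took no pseudocount and a two-sided exact permutation test. Transcript composition came from GENCODE release 44. Members and lists were chosen with earlier results of these data known. Of the other lists, the 3 genes with the highest mean were eligible for naming, with those whose groups were apart or whose unadjusted p was under 0.05, and 6 erythroid genes, 1 of which is not reported here. Alternatives were a smaller pseudocount (0.1), no filter or a stricter one (1 FPKM), scaling by median ratios or quantiles, eBayes without a trend, a replicate block, each library left out and, for ratios, a pseudocount of 1. A loess correction (span 0.5) for transcript length and GC content was chosen after seeing the data. Python 3.11.15, numpy 2.4.6, pandas 2.3.3 and matplotlib 3.10.9 were used.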

Additional observations from a re-analysis of the deposited data

How the results depend on the processing

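Under the alternatives, 0 genes were called higher and 0 lower by limma in every fit, and the adjusted p of the members was 0.667 or more. Of 140 log2 fold changes of members under these fits, 128 kept their direction and 12 reversed, and the cause was not tested. The fits without a filter, with the stricter filter, without a trend and with the replicate block left the fold change itself unchanged by construction. Those fits could not reverse a direction. With median-ratio scaling SMARCB1 was at -0.018 and SMARCD1 at -0.0030. With the GC and length correction, chosen after seeing the data, SMARCA4 was at -0.010, SMARCB1 at -0.046 and SMARCD1 at -0.012. Leaving out single libraries, the value ran from -0.0061 to 0.20 for SMARCA2, from -0.0095 to 0.092 for SMARCA4, from -0.051 to 0.062 for SMARCB1, from -0.024 to 0.0095 for SMARCC1 and from -0.033 to 0.059 for SMARCD1. The difference in log2 ratio ran from -0.19 to 0.041 for SMARCA4/SMARCA2, from -0.029 to 0.078 for ARID1A/ARID1B, from -0.23 to -0.061 for SMARCC1/SMARCC2 and from -0.084 to -0.024 for SMARCD2/SMARCD1. The number of members whose groups were apart was 1 with quantile normalization (6.98% of all genes) and ran from 2 to 4 with a library left out. The share of all genes apart was then 11.9% to 25.2%, the latter without sh-IUR1 r2, where 3 members were apart, and 22.0% without sh-luc r1, where 4 were. The members added were all higher in sh-IUR1: SMARCC2 and ARID1B without sh-luc r1, SMARCA4 without sh-luc r2 and SMARCA2 without sh-IUR1 r2.

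Deviations of same-numbered libraries from their group means had correlations across genes of 0.044, 0.39 and -0.34 for unnumbered, r1 and r2. Deviations within a group of 3 depend on each other, so these values cannot decide whether the numbers pair the libraries. With the replicate block, 0 genes were called, 355 were higher and 178 lower at an unadjusted p under 0.05, and SMARCC2 had a log2 fold change of 0.15 with an adjusted p of 0.947 by limma. With 3 libraries a group, small differences could not be detected, and without counts the precision of low levels such as those of SMARCA2 and ARID1B is not known.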
